A study of Mus musculus with 41 samples.

Results

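The transcripts of 39 lysosomal enzymes and lysosomal membrane proteins were followed in the hippocampus of mice ranked by learning and memory. Members were taken by name from a list of genes, and each was read on 1 Affymetrix probe set that the platform annotation gives to that gene alone, the brightest of the gene by its mean over 41 arrays. A probe set of this kind was found for 38 of the 39 genes, and Cd63 had none. The probe set of Sgsh lay below the brightness limit, at a mean intensity of 31.27 against a limit of 38.45, so 37 genes were tested, beside 11237 genes and 22519 probe sets tested in all.

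The animals were 41 males of C57BL/6J, an inbred strain, untreated apart from the behavioural battery, with 1 array of hippocampal RNA for each mouse. Testing started at 10 weeks of age, and 5 cognitive tests gave 11 parameters. They were the Barnes maze (weeks 10 to 11), the radial maze (weeks 12 to 14), the T-maze (weeks 15 to 19), fear conditioning (week 33) and passive avoidance (weeks 37 to 38), and RNA was taken 1 month after the last of all tests. A mouse has a class where 2 ranking systems placed it alike, which gave 8 low, 12 medium and 5 high mice. Another 14 mice were ranked inconsistently and 2 had incomplete data. Those 16 mice have no class, although inconsistent replicate 2 carries a second label as consistently medium. All mice share strain, sex and test history, and the classes are ranks within this cohort. Each p-value therefore measures a difference against the spread between mice of a class.

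The lysosome is an acidic organelle that breaks down proteins, glycans and lipids delivered by endocytosis and autophagy. Its enzymes are made in the endoplasmic reticulum, and many carry a mannose phosphate tag that directs them to the organelle. Inherited loss of single enzymes causes storage diseases, many of which damage neurons or myelin. The transcription factors TFEB and TFE3 bind E-box motifs near the start sites of many lysosomal genes and raise their transcription when nutrients are scarce.

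Promoter windows of these genes held that motif. Windows from 250 bases before to 50 bases after a transcription start were available from RefSeq (GRCm38.p6) for 35 of the 39 genes, and Ctsb, Ctsh, Npc1 and Asah1 had no entry. The core E-box CACGTG occurred in 13 of the 35 genes (37.1%), against 8.09% of the 27025 genes with a window. The extended form TCACGTGA, which contains the core, occurred in 5 of the 35 (14.3%), against 1.12% of all genes. Each motif is its own reverse complement, so 1 search covers both strands. The stretches below are the ones with the extended form, in Cln3, Ctsa, Ctsd, Gla and Mcoln1, and that of Lamp1, which held 4 core copies. They are shown because the genes are read together in what follows and share these letters. Capitals mark the extended E-box or, in Lamp1, the core E-box. Each is written 5′ to 3′ on the strand of the gene.

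Cln3 (chr7:126583321-126583388, minus strand): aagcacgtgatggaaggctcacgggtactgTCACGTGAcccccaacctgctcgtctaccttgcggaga
Ctsa (chr2:164833730-164833772, plus strand): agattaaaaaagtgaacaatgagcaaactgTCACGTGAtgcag
Ctsd (chr7:142387889-142387956, minus strand): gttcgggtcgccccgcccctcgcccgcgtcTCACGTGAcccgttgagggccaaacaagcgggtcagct
Gla (chrX:134601163-134601255, minus strand): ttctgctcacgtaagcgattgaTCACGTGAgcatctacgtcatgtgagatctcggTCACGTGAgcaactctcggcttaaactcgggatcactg
Lamp1 (chr8:13159070-13159160, plus strand): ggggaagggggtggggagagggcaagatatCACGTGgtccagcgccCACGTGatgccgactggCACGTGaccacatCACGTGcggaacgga
Mcoln1 (chr8:3500443-3500510, plus strand): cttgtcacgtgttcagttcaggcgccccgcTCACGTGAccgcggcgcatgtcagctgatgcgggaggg

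The motif starts 122 bases before the start site in Cln3, 13 in Ctsa, 99 in Ctsd and 46 in Mcoln1. In Ctsa a second copy starts at base 5 after the start site, beyond the stretch shown. In Gla the copies start 228 and 195 bases before it. The 4 core copies of Lamp1 start 61, 45, 28 and 15 bases before the start site. The other genes with a core E-box were Glb1, Naglu, Gaa, Sgsh, Ctsl, Arsa and Ctsf. A match describes letters in the window and is not evidence of binding.

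Values are log2(intensity + 16) after quantile normalization, a scale on which differences of dim genes are understated. Array medians before normalization ran from 22.43 to 55.16. Pairwise correlations of arrays ran from 0.949 to 0.993, and the lowest was 0.966 without medium replicate 9, an array with a mean of 8.78 for 5 striatal markers against at most 7.93 on the arrays of the other groups. Another 11 arrays were bright in choroid plexus markers, with means of 8.11 or more for 9 markers against 6.89 or less on the other 30. The bright arrays were 3 low, 4 medium, 0 high, 3 inconsistent and 1 incomplete. Both this split and the next were drawn with the array values in view. Spike-in controls separated the arrays into groups of 7, 10 and 24, and the 5 high mice lay 1 in the second and 4 in the third. Marker means ran from 11.25 to 11.66 for neurons and from 10.5 to 10.69 for astrocytes. In such tissue, fewer cells of a type and less RNA per cell cannot be told apart.

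Every role of the list had members above the brightness limit, though no detection call was available to set them against background. Among the membrane proteins, mean intensities over the 41 arrays ran from 66.93 for Cln3, the protein lost in juvenile Batten disease, to 1771 for Lamp1, a heavily glycosylated protein that lines the organelle. Among the proteases, they ran from 145.7 for the aminopeptidase cathepsin H (Ctsh) to 3032 for the cysteine protease cathepsin B (Ctsb). Glycosidases ran from 45.34 for Naglu, which degrades heparan sulphate, to 749.5 for Hexa, which degrades gangliosides. Sulfatases ran from the untested Sgsh to 5182 for Ids, which acts on heparan and dermatan sulphate. The lipid-handling and other luminal proteins ran from 148.1 for Lipa, the acid lipase, to 4860 for Psap, the saposin precursor. These intensities belong to different probe sets and are not an order of transcript abundance.

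The spread between mice of a class differed from gene to gene. The median standard deviation within classes was 0.134 over the 37 genes and 0.165 over all tested probe sets. It ran from 0.072 for Ppt1, the thioesterase that removes palmitate from proteins, to 0.309 for Lamp2, a membrane protein of chaperone-mediated autophagy. Ctsc, the dipeptidyl peptidase that activates other proteases, had 0.30.

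**Figure D1:**
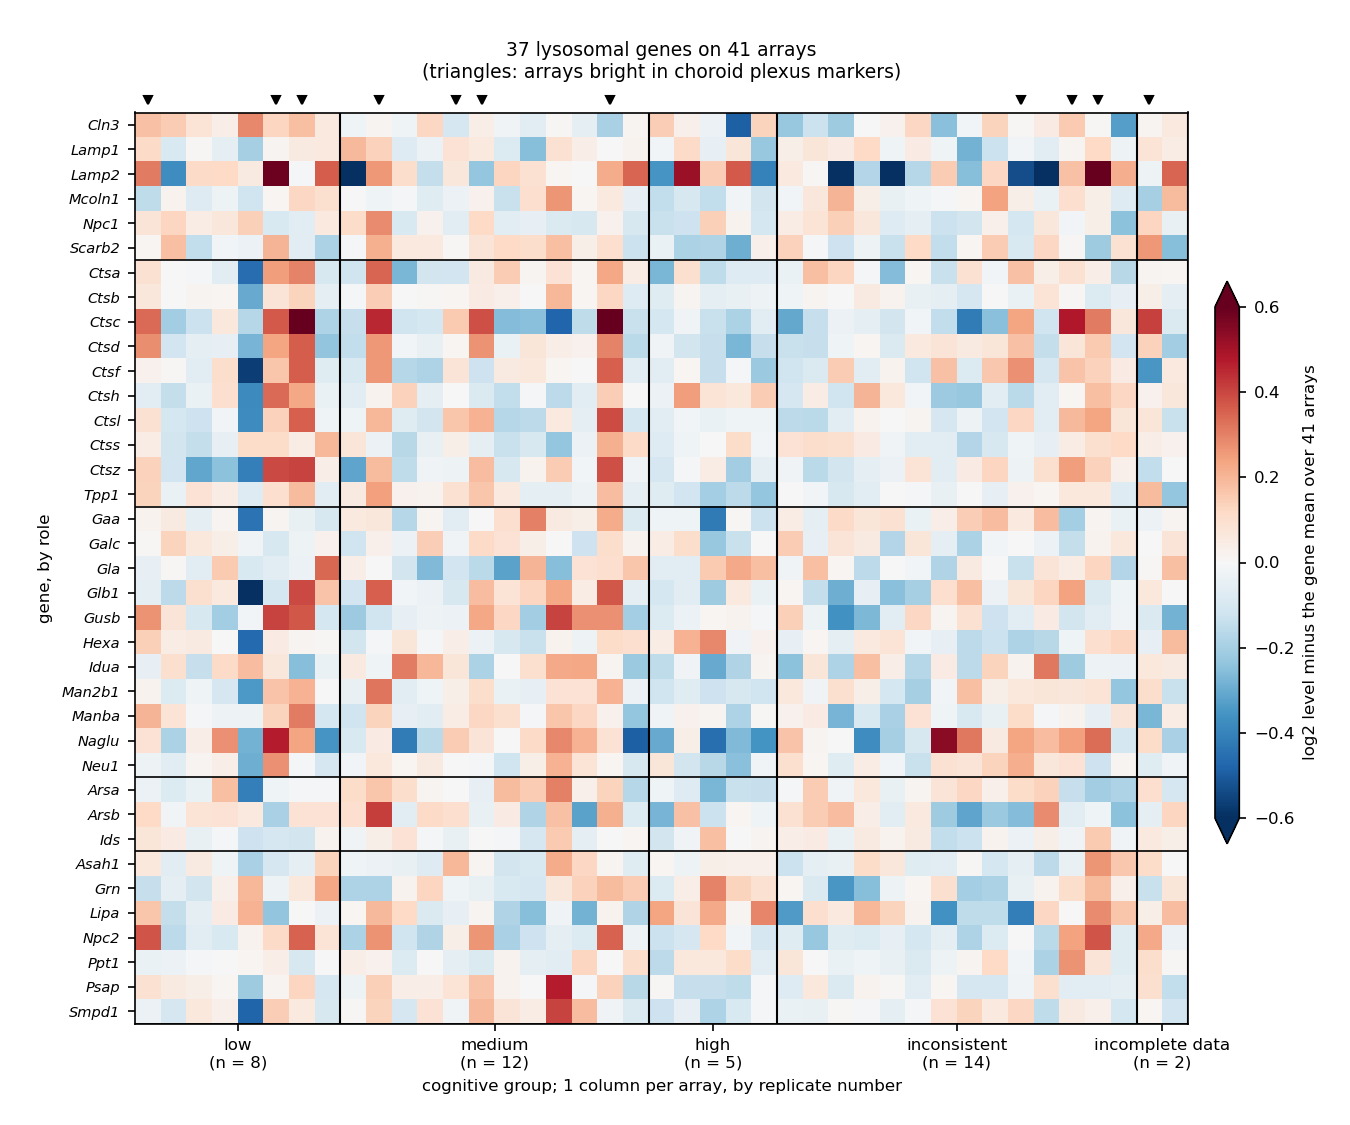
Level of each of 37 lysosomal genes (rows, by role) on each of 41 arrays (columns, by class), as log2 level minus the mean of the gene; triangles mark the 11 arrays bright in choroid plexus markers. Several proteases and Npc2 are high on the marked arrays, and low replicate 5 is low across many enzymes.

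High against low mice addresses whether lysosomal transcripts separate the ends of the cognitive ranking. No member passed the test (limma with Benjamini-Hochberg adjustment over all probe sets). The share of all tested probe sets that passed was 0.00888%. The lowest adjusted p among members was 0.493. At an unadjusted p under 0.05 there were 4 members (10.8%), against 8.17% of all tested probe sets. Of those, 3 lay below 0, where the share of all probe sets was 3.58%. Differences of the high mice were below 0 for 29 of the 37 genes (78.4%), against 48% of all probe sets. The median difference was −0.07, and that of all probe sets was 0.005. Of the cell type markers, 7 of 8 neuronal genes (median −0.06) and 6 of 7 oligodendrocyte genes (−0.06) lay below 0. So did 4 of 8 astrocyte genes (0) and 4 of 12 microglial genes (0.03). Of 8 endothelial and pericyte genes 5 lay below 0 (−0.04), and of 5 striatal genes 4 (−0.12). No marker passed the threshold, and their part in the members' differences was not tested. None of the 5 high arrays was bright in choroid plexus markers, while 3 of the 8 low arrays were. Without the bright arrays, 17 of 37 genes lay below 0, against 48.5% of all probe sets, and the median was 0.01. There, 2 members had an unadjusted p under 0.05, against 5.74% of all probe sets. That count was also 2 when low replicate 6 alone was left out. Within spike-in groups, the median was −0.06 in the second, with 1 high and 2 low arrays, and −0.05 in the third, with 4 and 5.

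With all arrays of the classes, the direction below 0 was spread over most roles. All 6 tested membrane proteins lay below 0 in high against low mice, with a median of −0.09. So did 9 of 10 proteases (median −0.07), 9 of 11 glycosidases (−0.07) and 2 of 3 sulfatases (−0.07). The lipid-handling and other luminal proteins had 3 of 7 below 0 and a median of 0.02. Without the choroid-bright arrays most proteases lay above 0. Ctsa, Ctsb, Ctsc, Ctsd, Ctsf, Ctsl and Ctsz were then at 0.027, 0.026, 0.024, 0.011, 0.033, 0.095 and 0.142. Ctsh was at 0.203, and Ctss and Tpp1 stayed below 0, at −0.002 and −0.145. The glycosidases Glb1, Gusb and Man2b1 and the membrane protein Lamp1 also came to lie above 0, at 0.06, 0.051, 0.006 and 0.037. With all arrays of the classes, the members above 0 were Ppt1, the acid ceramidase Asah1, Ids, the alpha-galactosidase Gla, the growth factor precursor progranulin (Grn), Ctsh, Hexa and Lipa. Further tested probe sets lay below 0 for Gla (−0.049), Grn (−0.096 and −0.007), Ctsh (−0.121) and Lipa (−0.041). Those of Ids were at 0.087, −0.083 and −0.018, and those of Ppt1 at 0.209, 0.026 and 0.122. Over all members, 23 of 33 further probe sets had the sign of the one used.

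Tpp1, tripeptidyl peptidase, whose loss causes late infantile neuronal ceroid lipofuscinosis, had the smallest unadjusted p. Its probe set was 1448313_at. Tpp1 stood at 9.90, 9.86, 9.77, 9.82 and 9.74 in the 5 high mice. In the low mice it ran from 9.90 to 10.17 with a median of 10.04. The 5 high mice all lay under the low mean, and the groups met at the highest high and the lowest low mouse. The difference was −0.20 ± 0.06 (SE), a fold of 0.869, with an unadjusted p of 0.00232 and an adjusted p of 0.493 (limma). A second probe set of Tpp1 gave −0.17 ± 0.13. The 3 highest low mice were bright in choroid plexus markers, and without the bright arrays the difference was −0.14 ± 0.06 (adjusted p = 0.868).

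Cln3, on 1417551_at, stood at 6.51, 6.39, 6.33, 5.87 and 6.49 in the high mice. In the low mice Cln3 ran from 6.40 to 6.65 with a median of 6.50. High replicate 4 was far below the other high mice. Of those, the values 6.51 and 6.49 lay inside the low range, and 6.39 and 6.33 lay under its lowest value of 6.40. The difference was −0.18 ± 0.08 (adjusted p = 0.571, limma), and it was −0.07 without that replicate. A second probe set of Cln3 gave −0.05 ± 0.09.

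Naglu, on 1417706_at, stood at 5.60, 5.94, 5.45, 5.64 and 5.54 in the high mice. Naglu ran from 5.55 to 6.37 in the low mice, with a median of 5.97. Of the high mice, 4 lay under the low mean, and the groups overlapped widely. The difference was −0.30 ± 0.13 (adjusted p = 0.582, limma), and without the choroid-bright arrays it was −0.17 ± 0.15.

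Lipa, the lipase that hydrolyses cholesteryl esters and triglycerides, went the other way. On 1450872_s_at, Lipa stood at 7.60, 7.44, 7.59, 7.37 and 7.65 in the high mice. In the low mice it ran from 7.12 to 7.57 with a median of 7.34. All 5 high mice lay above the low mean, and the groups overlapped. The difference was 0.18 ± 0.08 (adjusted p = 0.599, limma), while a second probe set of Lipa gave −0.04 ± 0.23.

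**Figure D2:**
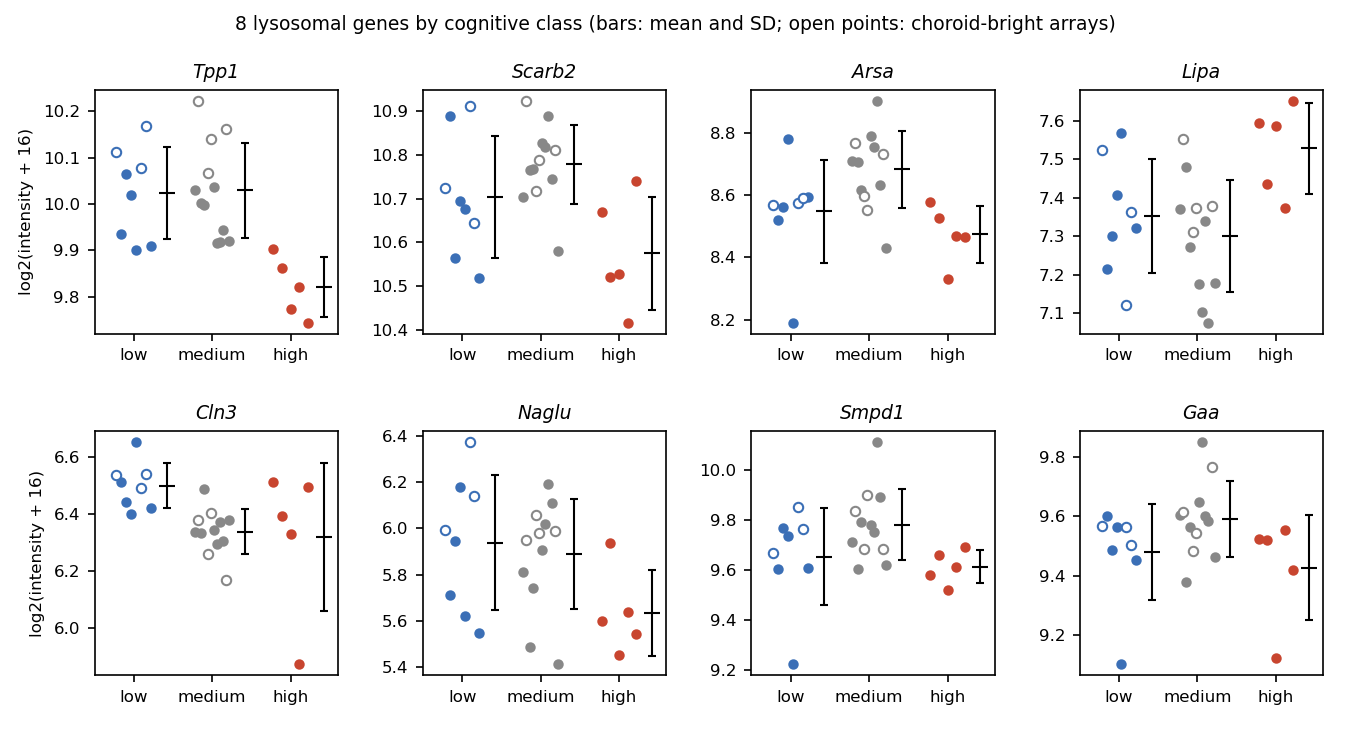
Level of 8 lysosomal genes, log2(intensity + 16), in 8 low, 12 medium and 5 high mice, 1 point per mouse, with bars for mean and SD; open points are arrays bright in choroid plexus markers. The 5 high mice lie at or under 9.90 for Tpp1, which no medium mouse reaches, and the classes overlap for the other genes.

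The comparison of high with medium mice had the larger share of members at small p-values. No member passed here either (limma, Benjamini-Hochberg), and 0.0311% of all tested probe sets did. The lowest adjusted p was 0.148. At an unadjusted p under 0.05 there were 10 members (27%), against 13.2% of all probe sets, and 9 of them lay below 0, against 5.92%. Differences were below 0 for 27 of 37 genes (73%), against 48.2% of all probe sets, with a median of −0.08. Without the choroid-bright arrays, the median was −0.03 and 24 genes lay below 0, against 49.1% of all probe sets. There, 5 genes had an unadjusted p under 0.05, against 11.3% of all probe sets. With all arrays of the classes, all 7 oligodendrocyte markers (median −0.06) and 6 of 8 neuronal markers (−0.06) lay below 0. So did 1 of 12 microglial markers (0.06) and 4 of 8 astrocyte markers (0.003). Of 8 endothelial and pericyte markers 5 lay below 0 (−0.02), and of 5 striatal markers 4 (−0.23). At an unadjusted p under 0.05 (limma) there were 3 striatal, 2 astrocyte and 1 microglial marker, and none of the other lists. No marker passed, and the part of the markers in the members' differences was not tested. Leaving out high replicate 3 gave 4 members at an unadjusted p under 0.05. Without medium replicate 9 there were 7, and the median difference of the members was −0.066. Within spike-in groups the median was −0.12 in the second, with 30 genes below 0 against 48.5% of all probe sets. It was −0.04 in the third, with 24 below 0 against 48.4%. The second rests on 1 high and 5 medium arrays, and the third on 4 and 5. The comparison shares its 5 high mice with the previous one, so the 2 sets of differences are not independent.

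By role, 5 of 6 membrane proteins (median −0.04), 8 of 10 proteases (−0.10), 9 of 11 glycosidases (−0.11) and 2 of 3 sulfatases (−0.09) lay below 0. The lipid-handling and other luminal group had 3 of 7 below 0 and a median of 0.01. The 9 members below 0 at an unadjusted p under 0.05 were Tpp1, Scarb2, Arsa, the iduronidase Idua, Psap, the alpha-mannosidase Man2b1, the acid sphingomyelinase Smpd1, the calcium channel Mcoln1 and the glycogen-degrading Gaa.

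Tpp1 ran from 9.92 to 10.22 in the medium mice, with a median of 10.02, and every high mouse lay below every medium mouse. The share of all tested probe sets without overlap between these groups was not counted. The difference was −0.21 ± 0.06 (adjusted p = 0.148, limma). With arrays weighted by their quality, Tpp1 was at −0.23 with an adjusted p of 0.0211, in a fit that called 357 probe sets in all. Within spike-in groups, Tpp1 differed by −0.13 in the second, which holds 1 high mouse, and by −0.19 in the third.

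Scarb2, the receptor that carries glucocerebrosidase to the lysosome, was read on 1454704_at. It stood at 10.67, 10.52, 10.53, 10.42 and 10.74 in the high mice. In the medium mice Scarb2 ran from 10.58 to 10.92 with a median of 10.78. All 5 high mice lay under the medium mean, and 2 of them fell inside the medium range. The difference was −0.20 ± 0.06 (adjusted p = 0.189, limma). Without the choroid-bright arrays it was −0.19 ± 0.07, and a second probe set gave −0.08 ± 0.08.

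Arsa, the sulfatase that degrades the myelin lipid sulphatide, was read on 1460346_at. It stood at 8.58, 8.53, 8.33, 8.47 and 8.46 in the high mice. In the medium mice Arsa ran from 8.43 to 8.90 with a median of 8.71. All 5 high mice lay under the medium mean, and the groups overlapped. The difference was −0.21 ± 0.07 (adjusted p = 0.220, limma), and without the choroid-bright arrays it was −0.22 ± 0.09.

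Lipa ran from 7.08 to 7.55 in the medium mice, with a median of 7.32. The 5 high mice lay above the medium mean. The difference was 0.23 ± 0.08 (adjusted p = 0.204, limma), and it was 0.28 ± 0.08 without the choroid-bright arrays. A second probe set of Lipa gave 0.18 ± 0.21.

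Man2b1, which trims mannose from glycans, stood at 8.37, 8.42, 8.37, 8.39 and 8.37 in the high mice. In the medium mice it ran from 8.43 to 8.81 with a median of 8.50. The groups did not overlap, and the highest high mouse lay just under the lowest medium mouse. As for Tpp1, the share of all tested probe sets without overlap was not counted. The difference was −0.15 ± 0.07 (adjusted p = 0.344, limma), and without the choroid-bright arrays it was −0.10 ± 0.06.

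Psap yields the saposins that present lipids to their hydrolases. It stood at 12.25, 12.10, 12.10, 12.09 and 12.23 in the high mice and ran from 12.08 to 12.71 in the medium mice, with a median of 12.28. The highest medium value was that of replicate 9, the array high in striatal markers, and the groups overlapped. The difference was −0.16 ± 0.07 (adjusted p = 0.331, limma), and a second probe set gave −0.15 ± 0.06. The difference of Psap without medium replicate 9 was not examined.

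Idua, which removes iduronic acid from glycosaminoglycans, stood at 6.93, 7.06, 6.78, 6.90 and 7.10 in the high mice. In the medium mice it ran from 6.86 to 7.39 with a median of 7.15, so the groups overlapped. The difference was −0.19 ± 0.08 (adjusted p = 0.312, limma), and a second probe set gave −0.20 ± 0.09. Mcoln1, which releases calcium from the lysosome, stood at 8.08, 8.14, 8.08, 8.22 and 8.12 in the high mice and ran from 8.10 to 8.49 in the medium mice. The groups overlapped, and the difference was −0.11 ± 0.06 (adjusted p = 0.373, limma).

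The other brightest and dimmest members of the roles had the following levels in the 3 classes. Lamp1 had 10.79 ± 0.10 (SD, n = 8) in low, 10.82 ± 0.12 (n = 12) in medium and 10.78 ± 0.13 (n = 5) in high mice. Ctsb had 11.56 ± 0.13, 11.61 ± 0.08 and 11.53 ± 0.03 in the same order, and Ctsh had 7.33 ± 0.22, 7.31 ± 0.10 and 7.43 ± 0.11. Hexa had 9.55 ± 0.18, 9.56 ± 0.08 and 9.68 ± 0.13, and Ids had 12.31 ± 0.08, 12.35 ± 0.07 and 12.36 ± 0.11. The classes overlapped for each of these 5 genes, and the unadjusted p was at least 0.104 in every pair of classes (limma).

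**Figure D3:**
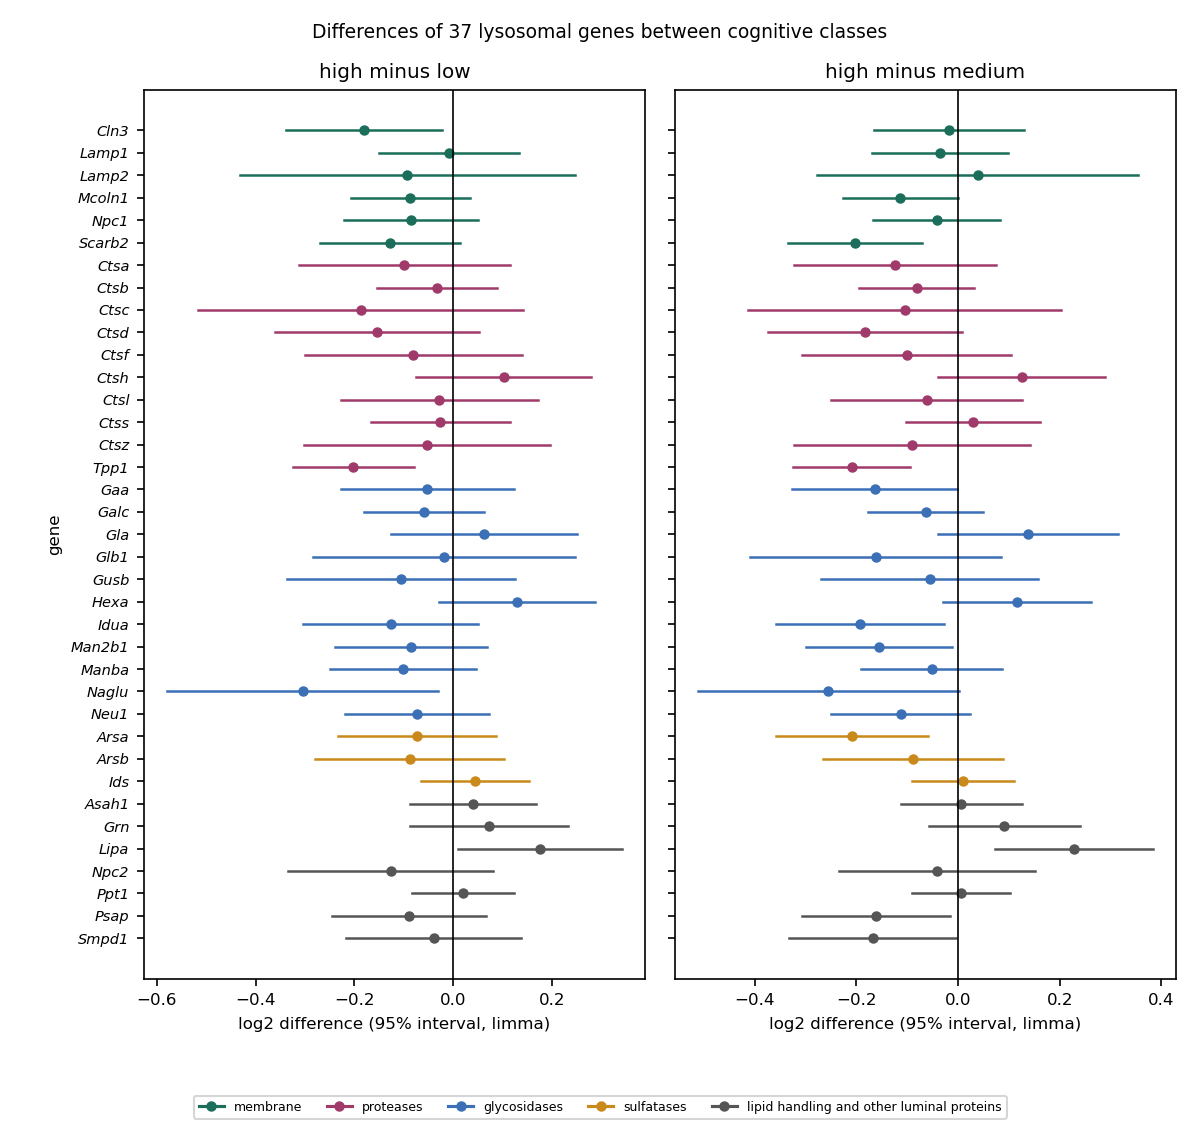
Log2 difference of each of 37 lysosomal genes between high and low mice (left) and between high and medium mice (right), with 95% intervals from limma, coloured by role. Points lie left of 0 for 29 genes on the left and 27 on the right, and the intervals of most genes include 0.

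Medium against low mice gave the fewest small p-values. No member and 0% of all tested probe sets passed (limma, Benjamini-Hochberg). At an unadjusted p under 0.05 there were 2 members (5.41%), against 3.11% of all probe sets. Differences were below 0 for 13 of 37 genes, where the share of all probe sets was 50.1%, and the median was 0.02. Without low replicate 5, an array low in many of these genes, 20 genes lay below 0 and the median was −0.01, on the other side of 0. That array had the lowest median intensity of all 41 before normalization, at 22.43. Cln3 ran from 6.17 to 6.49 in the medium mice, with a median of 6.34, and all 12 lay under the low mean. It differed by −0.16 ± 0.06 (adjusted p = 0.998, limma), while its second probe set gave 0.13 ± 0.07. Arsa ran from 8.19 to 8.78 in the low mice and differed by 0.14 ± 0.06, or by 0.08 without low replicate 5, its lowest low mouse.

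Smpd1, which splits sphingomyelin, ran from 9.23 to 9.86 in the low mice (median 9.70) and from 9.61 to 10.11 in the medium mice (median 9.77). It differed by 0.13 ± 0.07. Gaa ran from 9.10 to 9.60 in the low mice (median 9.53) and from 9.38 to 9.85 in the medium mice (median 9.59), a difference of 0.11 ± 0.07. Both groups overlapped for both genes. In the low mice the lowest value of each gene belonged to replicate 5, and without it the differences were 0.07 and 0.06.

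A test for any difference among the 3 classes called no member and 0.00888% of probe sets (limma's moderated F, Benjamini-Hochberg). At an unadjusted p under 0.05 it had 5 members, against 8.62% of all probe sets. They were Tpp1, Scarb2, Arsa, Lipa and Cln3. A slope over classes in the order low, medium, high called no member and 0.00444% of probe sets. It had 3 members at an unadjusted p under 0.05 (8.11%), against 5.92% of all probe sets, and these were Tpp1, Cln3 and Naglu, all with slopes below 0.

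The 14 inconsistently ranked mice were in no test. Tpp1 ran from 9.88 to 10.04 in them with a median of 9.97, and Scarb2 from 10.50 to 10.86 with a median of 10.71. Their Lipa ran from 6.94 to 7.64 with a median of 7.40. The range of Tpp1 reached into that of the high mice at its lower end.

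Other genes of the organelle were read for context from a list of 72, of which 65 were tested. None passed the threshold in any comparison (limma, Benjamini-Hochberg). In high against low mice, 36 of the 65 (55.4%) lay below 0 with a median of −0.01, and 3 (4.62%) had an unadjusted p under 0.05, against 48% and 8.17% of all probe sets. The proton pump that acidifies the organelle had 9 of 17 subunits below 0, and the sorting machinery 9 of 16. Another 18 lysosomal enzymes and membrane proteins had 15 below 0 and a median of −0.06. Transcription factors and nutrient-sensing genes had 3 of 14 below 0 and a median of 0.08. In high against medium mice, 34 of the 65 (52.3%) lay below 0 and 8 (12.3%) had an unadjusted p under 0.05, against 48.2% and 13.2% of all probe sets.

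Tfe3, the E-box factor related to TFEB, had the smallest unadjusted p of this list in both comparisons of the high mice. It differed by −0.31 ± 0.10 from the low mice (adjusted p = 0.493) and by −0.38 ± 0.09 from the medium mice (adjusted p = 0.112, limma). Next to it in high against low mice were the pump subunit Atp6v1g1 at −0.14 ± 0.05 and Lamtor5, a subunit of the Ragulator scaffold, at 0.14 ± 0.06. In high against medium mice they were Lamtor5 at 0.19 ± 0.06 and the amino acid sensor Slc38a9 at 0.20 ± 0.07. In medium against low mice the leading genes were the adaptor subunit Ap1g1 at −0.19 ± 0.07, the sialic acid exporter Slc17a5 at −0.13 ± 0.06 and Laptm4a at −0.10 ± 0.05.

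Members with a core E-box in their window were set beside those without one. Their median difference in high against low mice was −0.08 over 12 tested genes, against −0.09 over 21 genes without. In high against medium mice the medians were −0.12 and −0.06. These medians are descriptions, and their difference was not tested.

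Bloc1s2, a subunit shared by complexes that build and position lysosome-related organelles, is not a member. It is the probe set past the threshold in the series that lies nearest to this organelle. Bloc1s2 stood at 9.19, 9.34, 9.36, 9.36 and 9.20 in the high mice, against 8.79 to 9.04 in the low and 8.88 to 9.10 in the medium mice. The high mice did not overlap with either group. It was 0.35 ± 0.05 above the low mice (adjusted p = 0.00586) and 0.30 ± 0.05 above the medium mice (adjusted p = 0.0216, limma). The lysosomal members did not show differences of that size relative to their error. No probe set passed in either comparison with median-centred arrays, without normalization or with only the 2 groups fitted. The same held with the replicate block, in the largest spike-in group and without the choroid-bright arrays. Bloc1s2 was thus not past the threshold in those settings.

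The members' variation from mouse to mouse, apart from the groups, was compared pair by pair. Over the residuals from group means on 41 arrays, the 666 pairs of members had a median Pearson r of 0.13, and 71.3% were above 0. The highest were Ctsc with Ctsl (0.85), Ctsc with Npc2 (0.81), Ctsl with Npc2 (0.79), Ctsb with Psap (0.77) and Ctsd with Ctsl (0.76). Npc2 is the soluble protein that hands cholesterol to Npc1, and Ctsd and Ctsl are the aspartic and cysteine proteases cathepsin D and L. On the 30 arrays that were not choroid-bright, the same pairs had r of 0.22, −0.06, 0.09, 0.77 and 0.21. Ctsb with Psap thus kept its value there and the other 4 pairs did not. The median over all pairs was 0.08 on those arrays, and 59.8% of pairs were above 0. The lowest pair over the 41 arrays was Gaa with Grn, at −0.46 and at −0.55 on the 30. The arrays share their normalization, so these r are descriptions.

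Levels on the 11 choroid-bright arrays differed gene by gene. Of the 37 genes, 26 had a higher median there than on the other 30 arrays. This count, and that of genes without overlap, was not made over all tested probe sets, so both describe the members only. Ctsc ran from 7.70 to 8.22 on the bright arrays and from 7.06 to 7.61 on the others, without overlap, and its medians differed by 0.52. Ctsl ran from 10.38 to 10.69 against 9.93 to 10.38, also without overlap. Npc2 was 0.35 higher by median, Ctsd 0.31, Naglu 0.25 and Tpp1 0.18. Scarb2 was 0.02 higher, Arsa 0.02 lower and Lipa at nearly the same median. For the choroid list itself, all 9 genes lay below 0 in high mice, with median differences of −1.10 from the low and −0.88 from the medium mice, and none passed (lowest adjusted p = 0.666 and 0.447, limma). Its part in the class differences was not tested beyond leaving the bright arrays out.

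**Figure D4:**
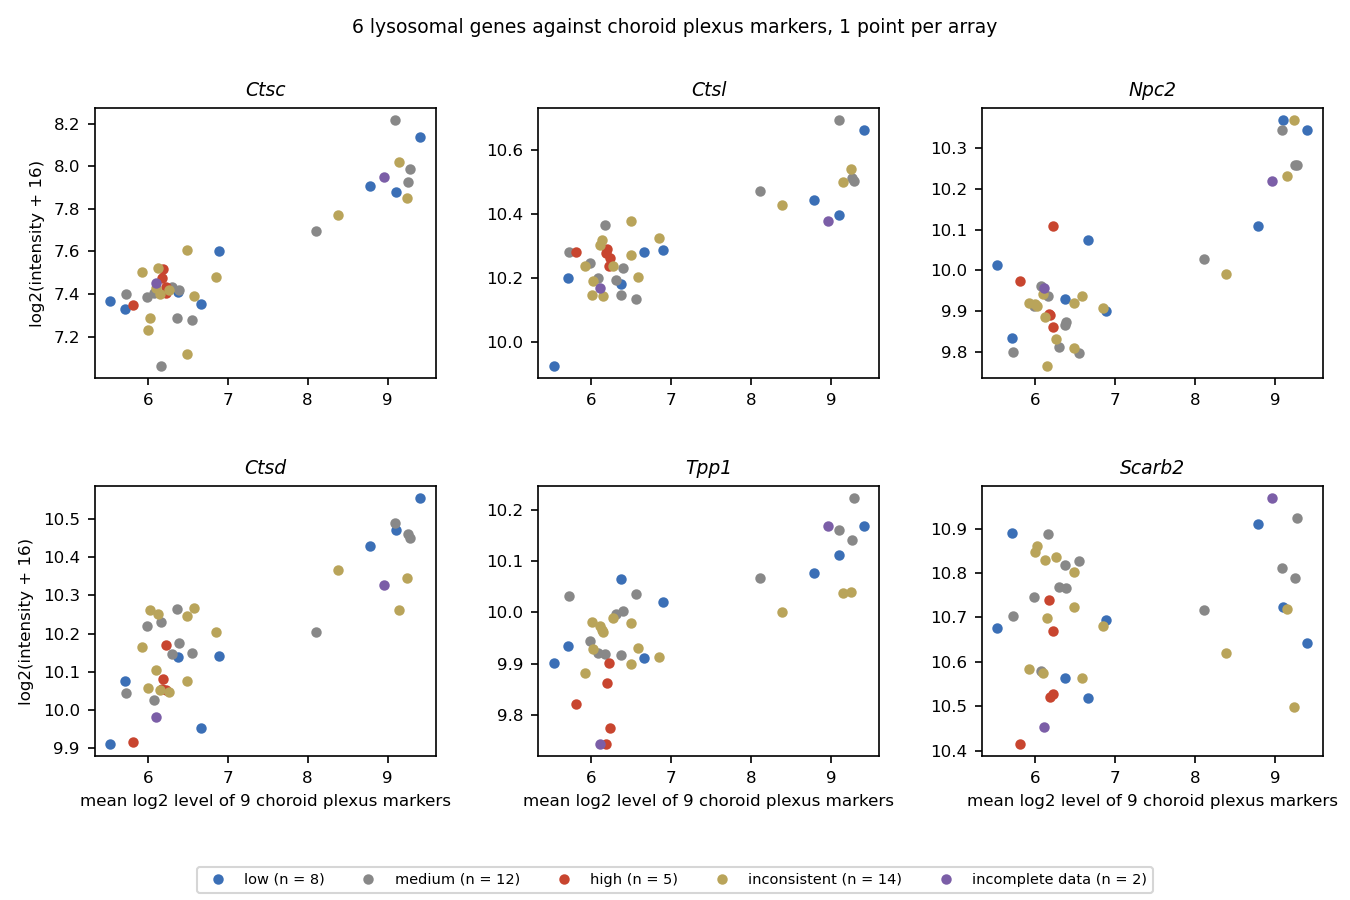
Level of 6 lysosomal genes, log2(intensity + 16), against the mean log2 level of 9 choroid plexus markers, 1 point per array, coloured by group. The 11 arrays at marker means of 8.11 or more hold the highest values of Ctsc and Ctsl, while Scarb2 covers a similar range on both sides.

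Leaving the bright arrays out moved single members by different amounts. Ctsc went from −0.19 to 0.02 in high against low mice, Ctsd from −0.15 to 0.01 and Npc2 from −0.13 to −0.01. Tpp1, Cln3, Naglu and Scarb2 stayed below 0, at −0.14, −0.17, −0.17 and −0.09. Lipa was at 0.17 and Ctsh, at 0.10 before, was at 0.20. In high against medium mice, Tpp1 was at −0.15, Scarb2 at −0.19, Arsa at −0.22 and Lipa at 0.28.

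**Figure D5:**
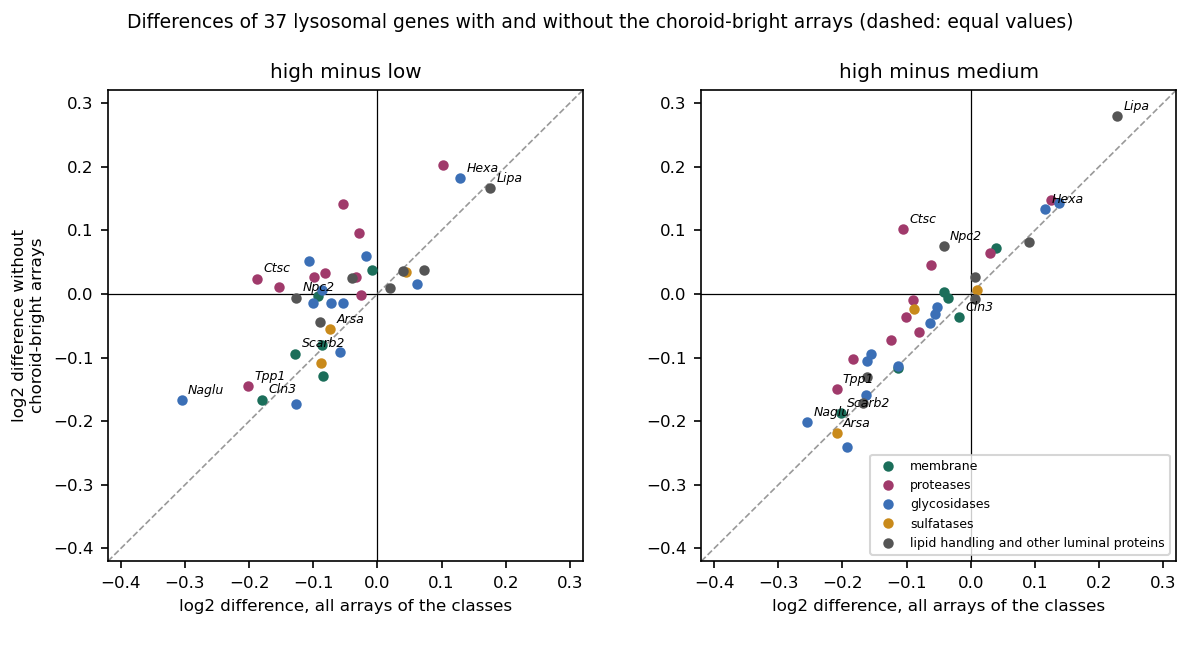
Log2 difference of each of 37 lysosomal genes with all arrays of the classes (horizontal axis) and without the choroid-bright arrays (vertical axis), for high minus low (left) and high minus medium mice (right); the dashed line marks equal values. On the left 17 genes lie below 0 without these arrays in place of 29, and on the right 24 lie below 0 in place of 27. Of all tested probe sets, 48.5% and 49.1% lie below 0 without these arrays.

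Correlations with cell type markers asked which cells' genes the members move with between mice. Each of the 37 members was set against the mean of 7 marker lists, 259 relations in all, by two-sided permutation tests with 100000 resamples and Benjamini-Hochberg adjustment. The smallest p these can give is 1e-05. The choroid list was used only within the 30 arrays that were not bright. By Pearson's r, 22 relations passed. The counts of relations that passed were not made over all tested probe sets, so they describe the members only. The oligodendrocyte list (Mbp, Mog, Mag, Mobp, Cnp, Cldn11 and Opalin) had 10, all positive, and 6 of these passed by Spearman's rho too.

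Man2b1, the lysosomal alpha-mannosidase, had r = 0.687 with the oligodendrocyte list (p = 1e-05, adjusted p = 0.00130, permutation) and rho = 0.693. Without the 2 arrays farthest from the median of the list r was 0.684, on the 30 arrays that were not choroid-bright it was 0.534, and in the spike-in groups of 7, 10 and 24 arrays it was 0.628, 0.342 and 0.728. Ctsa, the protease that also stabilises beta-galactosidase and sialidase, had r = 0.675 and rho = 0.625 (adjusted p = 0.00130 for r, permutation), with 0.484 on the 30 arrays. Both were positive in each spike-in group.

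These p-values and the following ones are permutation values. Ctsd had r = 0.591 and rho = 0.567, Naglu 0.541 and 0.590, and Tpp1 0.540 and 0.599 with the same list. Their r on the 30 arrays was 0.240 for Ctsd, 0.520 for Naglu and 0.225 for Tpp1. For these 3 genes p for r ran from 6e-05 to 0.00031 and adjusted p from 0.00518 to 0.0100 (permutation). The remaining 5 were Ctsz, Ctsf, Ctsb, the beta-galactosidase Glb1 and Ctsc. For Ctsc r was 0.452 on all arrays and −0.266 on the 30. With only those 30 arrays, 0 relations with this list passed the threshold. The list itself had means of 9.89 to 10.07 in high, 9.90 to 10.30 in low and 9.78 to 10.23 in medium mice, and 6 of its 7 genes lay below 0 in high against low mice.

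Fewer members passed with the other lists, where p for r ran from 9e-05 to 0.00407 and adjusted p from 0.00518 to 0.0479 (permutation). Against 12 microglial markers, Npc1, the membrane exporter of cholesterol, had r = −0.485 and rho = −0.458, and Arsb, a sulfatase of dermatan sulphate, had r = −0.459 and rho = −0.302. Without the 2 farthest arrays these r were −0.329 and −0.356, and neither relation passed by rho. Against 8 astrocyte markers, Ids had r = −0.510 and rho = −0.498, and −0.547 without the 2 farthest arrays. Against 8 neuronal markers, Arsb had r = 0.523 and rho = 0.563, and Psap had r = 0.519 and rho = 0.409. Without the 2 farthest arrays they had 0.570 and 0.417, and Psap did not pass by rho. Arsb kept values of 0.557, 0.540 and 0.539 in the 3 spike-in groups, while Psap had 0.348, 0.812 and 0.035.

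Against 8 endothelial and pericyte markers, Ctsa had r = 0.569 and rho = 0.429, and Naglu had 0.437 and 0.411. Without the 2 farthest arrays r was 0.430 and 0.332, and in the spike-in group of 7 arrays they had −0.024 and −0.420. Neither passed by rho. Within the 30 arrays, Glb1 had r = 0.568 and rho = 0.520 with the choroid plexus list, and r was 0.639 without the 2 farthest arrays. It did not pass by rho. Against 5 striatal markers, Psap had r = 0.703 and rho = 0.458, Smpd1 0.606 and 0.571, Gusb, the beta-glucuronidase, 0.466 and 0.372, and Ctss, the cathepsin of microglia and other phagocytes, −0.445 and −0.347. Without the 2 farthest arrays, of which medium replicate 9 is the farthest, the r were 0.439, 0.399, 0.372 and −0.272. Of the 4, Smpd1 alone passed by rho. The 4 relations kept their sign in each spike-in group.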

How the data were processed

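Hippocampal RNA of 41 mice was measured with 1 array per mouse, so the number of arrays limits the precision. Per the submitters' processing notes, Partek and RMA were used, with no version named, and how the deposited values were produced is not stated in the labels. The authors deposited intensities that run from 0.01117 to 13550 and so are taken as linear. All 41 arrays were quantile-normalized, 16 was added and log2 was taken. Probe sets whose mean reached the median of 38.45 were tested, 22519 of the 45037 that are not array controls. Of these 45037, 34945 had 1 symbol, 932 several and 9160 none, and genes were named only from the first kind.

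A model with a mean for each of the 3 classes was fitted to 25 arrays in limma 3.58.1 (R 4.3.3), and Benjamini-Hochberg adjustment covered all tested probe sets, with a threshold of 0.05. Members and lists were chosen with earlier results of these data known. The rule for names took, per contrast, the 4 members with the smallest unadjusted p, the brightest and dimmest of each role, up to 5 correlated members per marker list, 3 other lysosome genes per contrast, and Bloc1s2; Man2b1, Psap, Idua, Mcoln1 and the genes listed for the choroid-bright arrays were named after their values were seen. Alternatives covered normalization, offset, filter, variance model, array weights, arrays in the fit, the class of the contradictory mouse, spike-in group, replicate block, probe set, choroid-bright arrays and leaving out each array, and the counts below 0 and at an unadjusted p were added after seeing the data. The steps were tested on simulated data.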

Additional observations from a re-analysis of the deposited data

Results flagged for a closer look

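Single arrays stood apart from the rest of their group in 10 of 74 groups examined, each a gene in the low or the high mice, by the gap to the nearest mouse as a share of the whole range. Chance marks about 1 in 20 such groups, and the genes of an array are not independent. Low replicate 5 was the lowest low mouse for Ctsb (11.27), Ctsf (7.30), Hexa (9.11), Glb1 (6.50), Gaa (9.10), Arsa (8.19) and Smpd1 (9.22 on the log2 scale, against 9.61 for the nearest). Low replicate 6 was the lowest for Arsb at 10.10. High replicate 4 was the lowest high mouse for Manba, the beta-mannosidase, at 6.55, and for Cln3 at 5.87, where the nearest was at 6.33.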

How the results depend on the processing

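No member passed in any comparison under the alternatives run, apart from 1 in high against medium mice with array weights (Tpp1 at −0.227). In high against low mice the count at an unadjusted p under 0.05 was 1 without normalization and with a stricter brightness filter, and 2 in the largest spike-in array group alone, with the replicate block and without the choroid-bright arrays. In high against medium mice that count was 4 with median-centred arrays and without normalization, 6 with the spike-in block, the replicate block and the second brightest probe set, 3 in the largest spike-in group and 5 without the choroid-bright arrays. For all probe sets the share at an unadjusted p under 0.05 in these settings also changed. It ran from 1.32% (without normalization) to 9.47% (stricter filter) in high against low mice. In high against medium mice it ran from 7.15% (largest spike-in group) to 13.6% (replicate block). Without the choroid-bright arrays the median of high against low mice was 0.01 and 17 members lay below 0, against 48.5% of all probe sets. That of high against medium mice was −0.031. With median-centred arrays the median of high against low mice was −0.023, while that of all probe sets was 0.041, with 36% below 0. With the replicate block the medians were −0.031 for high against low, −0.041 for high against medium and −0.003 for medium against low mice. Without normalization the medians were −0.251 for high against medium and 0.131 for medium against low mice, with 2 members below 0 in the latter, and the medians of all probe sets were −0.169 and 0.107. With the stricter filter, which kept 26 members, 4 lay below 0 there. The second brightest probe set turned Lipa in high against low mice to −0.041 and Cln3 in medium against low mice to 0.128. Leaving out 1 array at a time gave 2 to 4 and 4 to 13 members at an unadjusted p under 0.05 for the comparisons of high mice, and 13 to 20 members below 0 for medium against low, whose median ran from −0.011 without low replicate 5 to 0.032. Replicate numbers did not pair the mice: the deviations of 18 same-numbered pairs correlated between −0.188 and 0.18, and 1 was over 0.1. Members correlated with marker lists changed most with median-centred arrays, to 23 for microglia, 29 for astrocytes, 25 for oligodendrocytes, 23 for neurons, 27 for endothelium and 26 for striatum. With an offset of 50 astrocytes had 2. In the largest spike-in group the counts were 0 for microglia, 2 for astrocytes, 5 for oligodendrocytes, 1 for neurons and 1 for striatum. Without the choroid-bright arrays they were 0 for microglia, astrocytes and oligodendrocytes, 1 for neurons and endothelium and 2 for striatum, and without medium replicate 9 they were 1 for microglia, neurons and endothelium and 2 for striatum. Over all probe sets, the 7 calls in high against medium mice became 15 with a variance trend and robust fit, 23 with all 41 arrays, 11 with the stricter filter, 357 with array weights, 4 with the spike-in block, 1 without a filter, and 0 with median-centred arrays, without normalization, with only the 2 groups fitted, with the replicate block, in the largest spike-in group and without the choroid-bright arrays. The 2 calls in high against low mice became 0 in the same settings as the 7 did. The causes of these changes were not tested. The deposited values carry no detection call, so dim members such as Naglu cannot be set against background.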
